A study of Arabidopsis thaliana with 8 samples.

Results

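The 39 nuclear genes described here encode proteins of the photosynthetic apparatus and were measured in roots, an organ that does not normally make leaf-type chloroplasts. They were taken by locus from a list of light-harvesting antenna, photosystem, plastocyanin, Rieske and Rubisco small subunit genes, and all 39 were found among the 40246 features of the count table. They fall into 6 role groups: 4 antenna genes of photosystem I (LHCA), 13 of photosystem II (LHCB), 4 Rubisco small subunit genes (RBCS), 10 core subunits of photosystem I (PSA), 5 lumen-side proteins of photosystem II (PSB) and 3 electron carriers (PETE1, PETE2 and PETC).

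Photosystems I and II capture light with chlorophyll-binding antenna proteins and pass electrons through the cytochrome b6f complex and plastocyanin. The reducing power and ATP from that chain drive the Calvin cycle, in which Rubisco fixes carbon dioxide, and the small subunits of Rubisco are made in the cytosol from nuclear genes and imported into the plastid. In leaves these genes are among the most highly transcribed and respond to light and plastid signals, while in roots, whose plastids are mostly colourless, their level is low.

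Roots came from Arabidopsis thaliana seedlings of the Col-0 background, 7 days old, either wild type or bzr1-D. The bzr1-D line carries a dominant allele of BZR1, a transcription factor that acts at the end of the brassinosteroid hormone pathway. Both genotypes grew at 22 °C on MS medium that held 0.2% sucrose, in cycles of 16 h of light and 8 h of darkness. At day 6 they were transferred for 24 h to medium with 0.625 mM phosphate (adequate Pi) or with 1 µM (low Pi). Polyadenylated RNA of each of the 4 groups was sequenced in 2 libraries that the labels call biological replicates and number as Exp 1 and Exp 2. The p-values below measure the spread between these libraries.

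Total counts ranged from 15947895 to 22150569 per library. Levels are in counts per 1000000 counts of the library (CPM), with TMM scaling factors, so that 1 CPM rested on at least 15.9 counts. All 10 root markers were detected in every library. The 14 shoot markers, which cover leaf polarity, shoot meristem, epidermis, stomata and trichomes, summed to between 21.6 and 31.9 CPM per library, most of it from PDF1, an epidermal gene that read 18.2 to 26.3 CPM. ATML1 and CER1 were also found in every library, with 25 to 50 and 26 to 102 counts. STM, a shoot meristem gene, GL1, a trichome gene, and FIL, a leaf polarity gene, were at or near 0. In both low Pi libraries of Exp 1, 11 of the 14 markers were detected, and in the other libraries 5 to 7. FIL, YAB3 and YAB5 were counted only in those low Pi libraries of Exp 1, with at most 4 counts each. With bulk RNA, fewer cells of a type and less RNA per cell cannot be told apart.

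The stretch before the start of a gene is where many transcription factors bind, and it is shown for 6 members that the results turn on. LHCA3, PSAF, PSAH1 and PSBQ1 were higher in bzr1-D, PSAK was lower, and RBCS2B was among the members with the widest range over libraries. Each line holds the 250 bases before the gene start of the RefSeq annotation of TAIR10.1, 5′ to 3′ on the strand of the gene. Capitals mark matches on either strand to the G-box (CACGTG), the I-box (GATAAG) and CGTGTG, a core that BZR1 is known to bind.
LHCA3 (chr1:22699465-22699714, plus strand): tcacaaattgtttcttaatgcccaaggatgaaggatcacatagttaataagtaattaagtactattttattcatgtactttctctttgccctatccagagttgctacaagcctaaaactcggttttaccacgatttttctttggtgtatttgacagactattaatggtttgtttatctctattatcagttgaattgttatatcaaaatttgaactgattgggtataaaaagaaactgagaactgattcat
PSAF (chr1:11216142-11216391, minus strand): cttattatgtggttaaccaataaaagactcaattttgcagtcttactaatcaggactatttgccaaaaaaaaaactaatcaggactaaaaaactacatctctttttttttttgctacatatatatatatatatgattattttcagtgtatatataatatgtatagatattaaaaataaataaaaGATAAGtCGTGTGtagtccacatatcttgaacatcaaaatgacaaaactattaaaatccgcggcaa
PSAH1 (chr3:5469595-5469844, minus strand): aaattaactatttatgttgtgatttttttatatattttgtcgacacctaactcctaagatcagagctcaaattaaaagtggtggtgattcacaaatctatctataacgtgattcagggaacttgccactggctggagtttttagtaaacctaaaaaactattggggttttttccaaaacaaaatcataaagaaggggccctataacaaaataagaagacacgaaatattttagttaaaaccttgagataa
PSBQ1 (chr4:11334102-11334351, plus strand): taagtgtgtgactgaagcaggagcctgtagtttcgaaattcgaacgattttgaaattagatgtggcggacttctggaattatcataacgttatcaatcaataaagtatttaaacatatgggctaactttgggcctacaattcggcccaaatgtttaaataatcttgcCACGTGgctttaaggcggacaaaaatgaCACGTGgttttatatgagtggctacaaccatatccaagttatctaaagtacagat
PSAK (chr1:10721933-10722182, plus strand): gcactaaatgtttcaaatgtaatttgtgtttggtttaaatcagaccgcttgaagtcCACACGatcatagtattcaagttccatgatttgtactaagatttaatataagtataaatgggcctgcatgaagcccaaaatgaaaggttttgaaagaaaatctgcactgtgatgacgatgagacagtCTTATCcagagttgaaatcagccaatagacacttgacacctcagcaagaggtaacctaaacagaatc
RBCS2B (chr5:15382072-15382321, minus strand): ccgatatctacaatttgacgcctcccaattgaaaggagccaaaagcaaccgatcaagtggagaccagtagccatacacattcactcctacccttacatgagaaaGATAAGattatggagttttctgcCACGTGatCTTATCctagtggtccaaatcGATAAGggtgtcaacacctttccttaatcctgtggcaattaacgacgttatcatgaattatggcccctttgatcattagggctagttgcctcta

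Motif matches differed between members that behaved alike. A G-box was found before 6 of the 39 members (15.4%) and before 6.49% of 27431 genes with such a window. An I-box, known from promoters of light-regulated genes, stood before 10 members (25.6%) and 12.3% of all genes. CGTGTG was found before 2 members, PSAF and PSAK (5.13%), and before 5.36% of all genes, and the former was higher in bzr1-D and the latter lower. CGTGCG, another known BZR1 core, and the evening element (AAATATCT), a clock motif, were before none of the 39, against 1.56% and 4.79% of all genes. LHCA3 and PSAH1 held none of the 5 motifs searched. Of the members with the widest range over libraries, only RBCS2B held any. LHCB1.1, LHCB1.2, LHCB1.4, LHCB2.2, RBCS1B and RBCS3B held none. The PSBQ1 window overlaps an annotated neighbour on the genome. A match is a description of letters and no match says only that they are not in this window.

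The members differed widely in level. The mean over 8 libraries was above 10 CPM for 9 members, between 1 and 10 CPM for 23 and at most 1 CPM for 7. Per kilobase of exon, PSBR stood first with 62.2 CPM per kb, followed by LHCB1.5 with 28.8, PSBO1 with 24.2 and PSAF with 15.3 CPM per kb. RBCS1A, known as the leading small subunit gene of leaves, reached 8.89 CPM per kb, while RBCS1B with 0.195 CPM per kb was the lowest of the members with any count. LHCA4 (AT3G47470), which encodes an antenna protein of photosystem I, had 0 counts in every library. Another 2 features of the table overlap it, the largest overlap being over 100% of its length. Reads that fall on several features may not be counted, so its level cannot be read from this table. PETE1, one of the plastocyanin genes, had a mean of 0.271 CPM, and with LHCA4 it fell below the filter on low counts, which left 37 members among 20262 tested features.

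**Figure D1:**
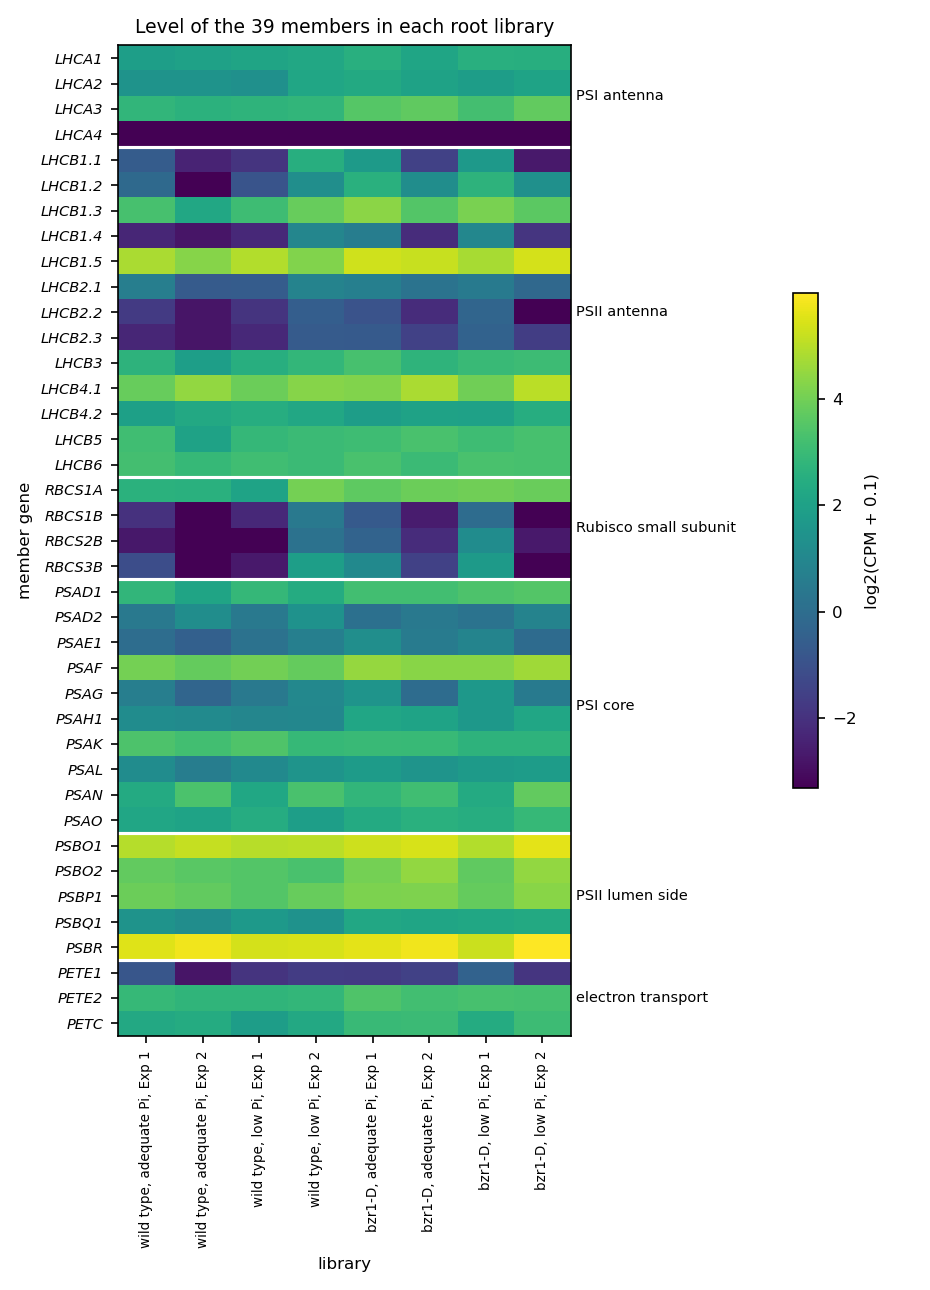
Level of the 39 members as log2(CPM + 0.1) in the 8 root libraries, ordered by group and Exp, with role groups at the right and brighter cells for higher levels. PSBR, PSBO1 and LHCB1.5 are bright in all libraries, and RBCS1B, RBCS2B, RBCS3B, LHCB1.1 and LHCB1.4 are brighter in wild type on low Pi in Exp 2 and in both bzr1-D libraries of Exp 1 than in the other 5.

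The summed level of the 39 members was higher in every bzr1-D library than in any wild-type library. In wild type it was 274.3 CPM in Exp 1 and 264.1 CPM in Exp 2 on adequate Pi, and 259.2 and 294.5 CPM on low Pi. In bzr1-D it was 369.6 and 365.8 CPM on adequate Pi, and 319.4 and 411.9 CPM on low Pi. The lowest bzr1-D library therefore lay above the highest wild-type library, both on low Pi. Since the members were chosen with results of these data known, the sums are a description and were not tested. PSBR alone, with a mean of 48.8 CPM, supplied the largest share of the sum.

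**Figure D2:**
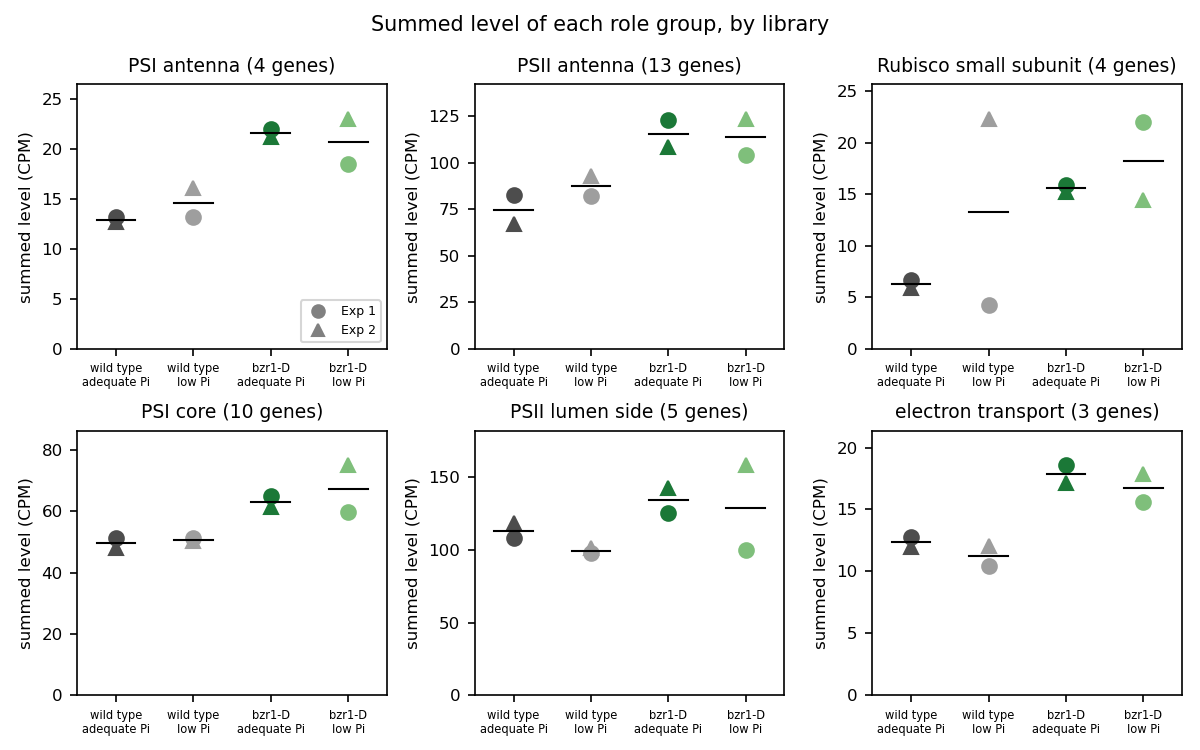
Summed level in CPM of each of the 6 role groups, by genotype and Pi supply, with circles for Exp 1, triangles for Exp 2 and a bar at the mean of the 2 libraries. The 4 bzr1-D libraries lie above the 4 wild-type libraries for the photosystem I antenna, photosystem II antenna, photosystem I core and electron transport groups, and overlap them for Rubisco, where wild type on low Pi in Exp 2 reached 22.3 CPM, and for the photosystem II lumen side.

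Most single members pointed the same way between genotypes, but few passed the test. At adequate Pi, 34 of 37 tested members had a higher fitted level in bzr1-D and 3 a lower one, with a median log2 fold change of 0.68 against 0.01 over all features tested. At low Pi, 29 were higher and 8 lower, with a median of 0.38 against 0.01. No member was called at an adjusted p under 0.05 in edgeR's quasi-likelihood test in either comparison, where 1.99% of all features were called on adequate Pi and 2.12% on low Pi. At an unadjusted p under 0.05 there were 12 members on adequate Pi (32.4%, against 9.71% of all features) and 9 on low Pi (24.3% against 10.8%). With the Exp number in the fit as a replicate block, 3 members were called on adequate Pi, all higher, where 2.81% of all features were called higher. The 3 were LHCA3, PSAH1 and PSBQ1, and none was left without either bzr1-D library on adequate Pi or without wild type on adequate Pi in Exp 2. Without wild type on adequate Pi in Exp 1, LHCA3 was called but PSAH1 and PSBQ1 were not. At low Pi, 6 were called with the block, all higher, against 3.86% of all features: LHCA3, PSAD1, PSAF, PSAH1, PSBQ1 and PETC. None of the 6 was left without bzr1-D on low Pi in Exp 2, where no member was called. None was left without wild type on low Pi in Exp 2 either, where the calls were LHCB1.1 to LHCB1.4, RBCS1A, RBCS2B, RBCS3B and, lower, PSAK. Without wild type on low Pi in Exp 1, where members were called in both directions, PSAH1, PSBQ1 and PETC were lost. PSBQ1 and PETC were also lost without any 1 of the 4 libraries on adequate Pi, and all 6 were called without bzr1-D on low Pi in Exp 1. Without any 1 library of either genotype on low Pi, LHCA3, PSAH1 and PSBQ1 stayed called on adequate Pi with the block. The share of all features called in these fits is not given here. How many members they called was therefore not read as a result.

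Counted over libraries, the groups were apart more often than those of other features. Both bzr1-D libraries lay above both wild-type libraries for 23 of 37 members on adequate Pi (62.2%), where 15.8% of all features did, and for 15 on low Pi (40.5%), where 16.3% did. They lay below for 2 members on adequate Pi, PSAD2 and PSAK, against 17.1% of all features, and for 1 on low Pi, PSAK, against 18.5%. All 4 bzr1-D libraries were above all 4 wild-type libraries for LHCA3, PSAD1, PSAF, PSAH1, PSBQ1 and PETE2, which is 16.2% of the tested members against 5.69% of all features. No member lay below in all 4, as 7.47% of all features did. Libraries with the same Exp number and Pi supply were also compared as pairs. In 4 of 4 pairs bzr1-D was above wild type for 16 of 37 members, against 3201 of 20262 features (15.8%). It was below in 4 of 4 for 2 of 37 members, against 3213 of 20262 features (15.9%).

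A comparison of the genotypes averaged over both Pi supplies, chosen after the data were seen, used all 8 libraries. It called LHCA3, PSAF, PSAH1 and PSBQ1 higher in bzr1-D without the block, 4 of 37 members, where 2.06% of all features were called higher. With the block it called 11 members higher, against 6.77% of all features, and PSAK lower, against 8.48%. The median log2 fold change of the members was 0.58, and 0.56 with the block, against 0.01 over all features in both. Leaving out 1 library at a time changed which members were called without the block. The count was 0 without wild type on low Pi in Exp 1, wild type on adequate Pi in Exp 2 or either bzr1-D library on adequate Pi, and without wild type on low Pi in Exp 2 the only call was RBCS1A. Without wild type on adequate Pi in Exp 1 the calls were PSAD1 and PSBQ1, and without bzr1-D on low Pi in Exp 2 they were LHCA3 and PSAH1. With the block, LHCA3, PSAF, PSAH1 and PSBQ1 were called in each of the 8 fits, with log2 fold changes from 0.68, 0.42, 0.85 and 0.72 upward.

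**Figure D3:**
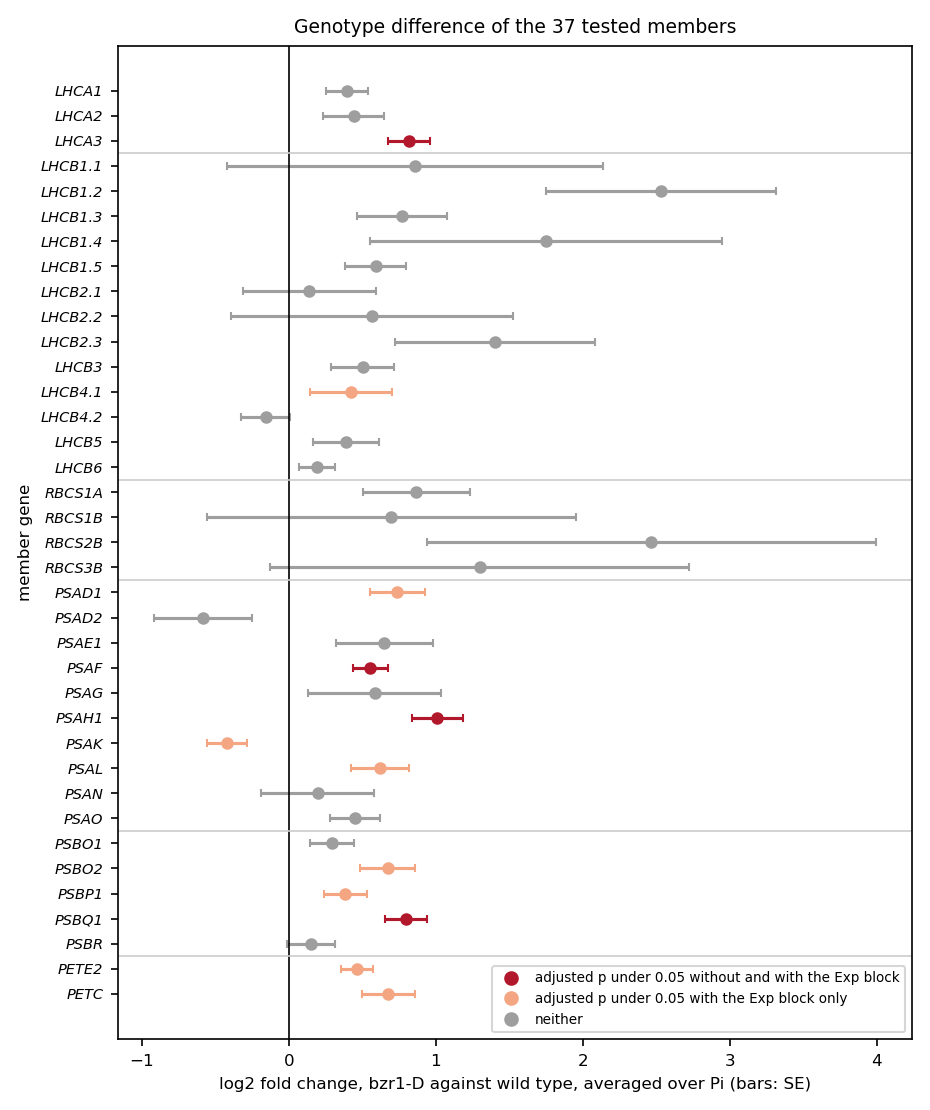
Log2 fold change of each of the 37 tested members in bzr1-D against wild type, averaged over Pi, with bars of 1 standard error from edgeR and horizontal lines between role groups. Dark red points (LHCA3, PSAF, PSAH1 and PSBQ1) passed an adjusted p of 0.05 with and without the Exp block, pale points with it only, and the small antenna and Rubisco copies have the longest bars.

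Among the photosystem I antenna genes, LHCA3, which encodes a chlorophyll-binding protein of the antenna belt, was called. The gene (AT1G61520) lies on chromosome 1 from 22699715 to 22701169 in the deposited table (TAIR10). Its level was 6.94 and 6.16 CPM in wild type on adequate Pi, 6.55 and 6.86 CPM on low Pi, 11.3 and 12.9 CPM in bzr1-D on adequate Pi, and 9.19 and 13.3 CPM on low Pi. Every bzr1-D library was above every wild-type library, and the 4 wild-type libraries lay close together. LHCA3 rose in bzr1-D by a log2 fold change of 0.81 ± 0.14 (SE), with an adjusted p of 0.019 in edgeR and 5.97e-04 with the block. LHCA1 and LHCA2, which encode the other antenna proteins measured, had averaged log2 fold changes of 0.39 and 0.44 and did not pass. LHCA1 spanned 3.59 to 4.7 CPM in wild type and 4.28 to 5.77 CPM in bzr1-D, and LHCA2 2.48 to 4.48 CPM and 3.52 to 4.89 CPM.

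Of the 10 photosystem I core genes, PSAF and PSAH1 were called higher. PSAF encodes the subunit to which plastocyanin docks (AT1G31330) and lies on chromosome 1 from 11214824 to 11216037. PSAF read 16.3 and 13.6 CPM in wild type on adequate Pi, 16.1 and 13.7 CPM on low Pi, 22.6 and 19.8 CPM in bzr1-D on adequate Pi, and 20.3 and 25 CPM on low Pi. The groups did not overlap, and the averaged log2 fold change was 0.55 ± 0.12 (SE, edgeR adjusted p 0.0429, and 0.00246 with the block). PSAH1 (AT3G16140, chromosome 3, 5468509 to 5469481) encodes a subunit at the docking site of the mobile antenna of photosystem II. Its level was 2.18 and 2.07 CPM in wild type on adequate Pi, 1.82 and 1.89 CPM on low Pi, 4.42 and 4.16 CPM in bzr1-D on adequate Pi, and 3.01 and 4.46 CPM on low Pi. PSAH1 had the largest averaged log2 fold change of the 4, at 1.01 ± 0.17 (SE, edgeR adjusted p 0.0167, and 0.00146 with the block).

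The paralogous PSAD genes encode the ferredoxin-docking subunit and went separate ways. PSAD1 read 6.94 and 4.18 CPM in wild type on adequate Pi, 7.26 and 5.13 CPM on low Pi, 8.99 and 8.82 CPM in bzr1-D on adequate Pi, and 10.4 and 11.1 CPM on low Pi. Every bzr1-D library was the higher, with an averaged log2 fold change of 0.74 (edgeR adjusted p 0.0791, and 0.00324 with the block). PSAD2 read 1.27 and 2.29 CPM in wild type on adequate Pi, 1.27 and 2.59 CPM on low Pi, 0.988 and 1.24 CPM in bzr1-D on adequate Pi, and 1.07 and 1.69 CPM on low Pi. It had a log2 fold change of -0.58 with an edgeR adjusted p of 0.51, and 0.117 with the block, and the 2 paralogs were not tested against each other.

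PSAK (AT1G30380), which encodes a small subunit beside the photosystem I antenna, was the only member called lower, and only with the block. Its level was 10.5 and 8.99 CPM in wild type on adequate Pi, 10.5 and 7.45 CPM on low Pi, 7.74 and 7.64 CPM in bzr1-D on adequate Pi, and 6.33 CPM in both libraries on low Pi. The wild-type library on low Pi in Exp 2 lay below both bzr1-D libraries on adequate Pi. The averaged log2 fold change was -0.42 (edgeR adjusted p 0.17, and 0.0255 with the block). PSAL, which helps photosystem I to bind antenna proteins, read 2.18 and 1.44 CPM in wild type on adequate Pi, 2.04 and 2.75 CPM on low Pi, 3.33 and 2.73 CPM in bzr1-D on adequate Pi, and 3.27 and 3.45 CPM on low Pi. Only wild type on low Pi in Exp 2 overlapped the bzr1-D libraries, and the log2 fold change was 0.62 (edgeR adjusted p 0.163, and 0.0463 with the block). PSAO, another subunit of that side, read 3.62 to 5.28 CPM in wild type and 5.09 to 7.34 CPM in bzr1-D and was not called.

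PSAE1 had the lowest mean of the core genes and PSAG the widest range. PSAG, a subunit at the antenna side, read 1.47 and 0.719 CPM in wild type on adequate Pi, 1.27 and 1.94 CPM on low Pi, 2.70 and 0.869 CPM in bzr1-D on adequate Pi, and 3.01 and 1.3 CPM on low Pi. Here both bzr1-D libraries of Exp 1 and wild type on low Pi in Exp 2 were the 3 highest, and the genotypes overlapped. PSAE1, a subunit on the stromal side, read 0.911 and 0.629 CPM in wild type on adequate Pi, 1.05 and 1.51 CPM on low Pi, 2.34 and 1.37 CPM in bzr1-D on adequate Pi, and 1.74 and 0.847 CPM on low Pi. The same 3 libraries were the highest.

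The photosystem II lumen-side genes encode the proteins that shield the water-splitting site, and PSBQ1 was called among them. PSBQ1 (AT4G21280, chromosome 4, 11334402 to 11335773) read 2.68 and 2.25 CPM in wild type on adequate Pi, 3.14 and 2.59 CPM on low Pi, 4.73 and 4.28 CPM in bzr1-D on adequate Pi, and 4.54 and 4.91 CPM on low Pi. The 4 bzr1-D libraries stood together above all others, with an averaged log2 fold change of 0.80 ± 0.15 (SE, edgeR adjusted p 0.0212, and 0.00226 with the block). PSBO2, a copy of the manganese-stabilising protein, read 13.2 and 12 CPM in wild type on adequate Pi, 11.1 and 9.94 CPM on low Pi, 16.2 and 22.1 CPM in bzr1-D on adequate Pi, and 13.1 and 22.0 CPM on low Pi. One bzr1-D library, on low Pi in Exp 1, fell within the wild-type range, and PSBO2 passed only with the block (log2 fold change 0.67, adjusted p 0.104, and 0.0308 with the block). PSBP1, a partner of PSBQ1 at that site, read 14.7 and 13.3 CPM in wild type on adequate Pi, 11.1 and 14 CPM on low Pi, 17.5 and 18 CPM in bzr1-D on adequate Pi, and 13.7 and 19.9 CPM on low Pi. Here too the bzr1-D library on low Pi in Exp 1 overlapped wild type, and the call held only with the block (0.38, edgeR adjusted p 0.241, and 0.0371 with the block).

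PSBO1 and PSBR, the members with the highest mean CPM, were not called between genotypes. PSBO1, the other manganese-stabilising copy, read 31 and 35.9 CPM in wild type on adequate Pi, 31.8 and 32.2 CPM on low Pi, 39.1 and 43.1 CPM in bzr1-D on adequate Pi, and 30.2 and 48.1 CPM on low Pi. Of the bzr1-D libraries, the one on low Pi in Exp 1 lay below every wild-type library and the other 3 lay above them. PSBR encodes a small lumen-side subunit and read 46.5 and 55.3 CPM in wild type on adequate Pi, 41.2 and 42.3 CPM on low Pi, 48.0 and 55.3 CPM in bzr1-D on adequate Pi, and 38.2 and 63.3 CPM on low Pi. The lowest and the highest library were both bzr1-D on low Pi, and the averaged log2 fold change was 0.15 ± 0.16 (SE, edgeR adjusted p 0.81). PSBR overlaps a neighbouring gene over 5.13% of its length, so reads in that stretch may be lost from its count.

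Both electron carriers that were tested were higher in bzr1-D with the block. PETE2, the plastocyanin gene with the higher level, read 7.49 and 6.65 CPM in wild type on adequate Pi, 6.77 and 7.08 CPM on low Pi, 10.6 and 8.88 CPM in bzr1-D on adequate Pi, and 9.70 and 9.38 CPM on low Pi. All bzr1-D libraries were above all wild-type libraries (averaged log2 fold change 0.46, edgeR adjusted p 0.0612, and 0.00847 with the block). PETC, the Rieske protein of cytochrome b6f, read 4.81 and 5.26 CPM in wild type on adequate Pi, 3.52 and 4.75 CPM on low Pi, 7.80 and 8.01 CPM in bzr1-D on adequate Pi, and 5.21 and 8.30 CPM on low Pi. The bzr1-D library on low Pi in Exp 1 overlapped wild type, and the log2 fold change was 0.68 (edgeR adjusted p 0.0957, and 0.00417 with the block). PETE1, which was not tested, read 0.456 and 0.0449 CPM in wild type on adequate Pi, 0.165 and 0.216 CPM on low Pi, 0.208 and 0.248 CPM in bzr1-D on adequate Pi, and 0.664 and 0.169 CPM on low Pi.

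The photosystem II antenna and Rubisco genes held a different pattern. 7 members ranged over more than 3 log2 units of CPM + 0.1 between libraries: LHCB1.1, LHCB1.2, LHCB1.4, LHCB2.2, RBCS1B, RBCS2B and RBCS3B. This limit was set after their values were seen, and the next widest tested member, LHCB2.3, ranged over 2.40 log2 units. Their summed level was 14.3 and 3.17 CPM in bzr1-D on adequate Pi, 18.5 and 2.71 CPM on low Pi, 2.23 and 0.180 CPM in wild type on adequate Pi, and 1.05 and 16.2 CPM on low Pi. The 3 high libraries are bzr1-D on adequate Pi in Exp 1, bzr1-D on low Pi in Exp 1 and wild type on low Pi in Exp 2, which share neither genotype, Pi supply nor Exp number. Because this split crosses the labels, HYH and PHT1;1 were looked at beside it, both chosen after their values were seen. In the 3 libraries HYH, a light regulator, read 16.7, 14.1 and 26.3 CPM, on the side of the labelled genotype (11.9 to 16.7 CPM in bzr1-D, 26.3 to 31.5 CPM in wild type). PHT1;1, a root phosphate transporter of the root marker list, was higher on low than on adequate Pi in 4 of 4 pairs of the same genotype and Exp number. The HYH ranges include the 3 libraries, and both genes were picked with their values by label known. Neither gene can therefore check the labels of genotype or Pi supply, and no gene was used to check the Exp numbers. In those 3 libraries the 7 members gave 3.88%, 5.80% and 5.5% of the summed level of all members, and at most 0.866% in the other 5.

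**Figure D4:**
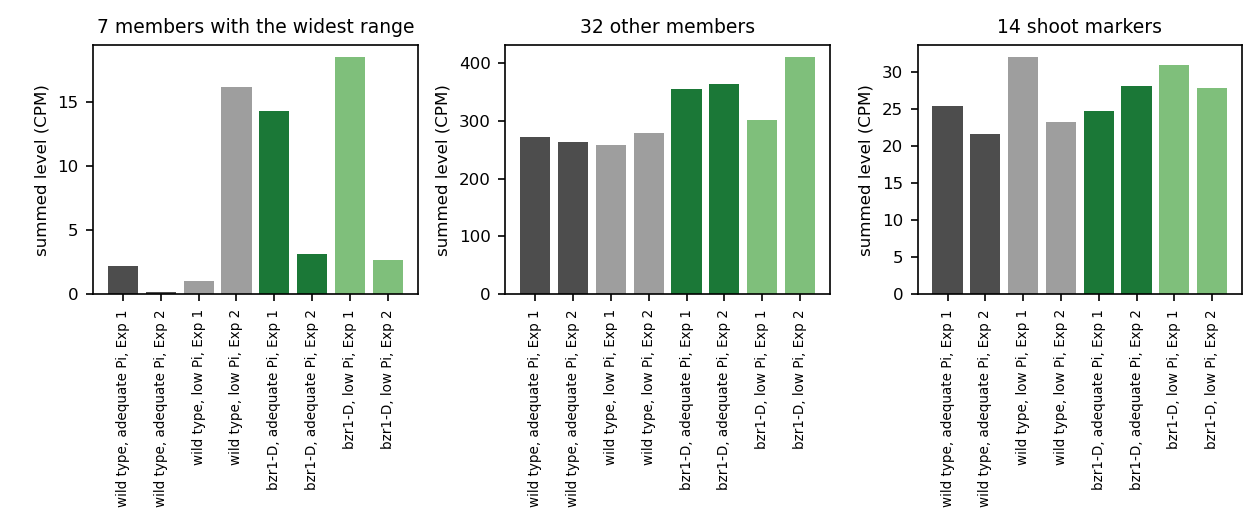
Summed level in CPM per library of the 7 members with the widest range, the 32 other members and the 14 shoot markers, with bars from 0 and colours by group. The 7 members exceed 14 CPM in 3 libraries and stay under 4 CPM in the other 5. The shoot markers lie between 21.6 and 31.9 CPM, most of it from PDF1.

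LHCB1.1 (AT1G29920) encodes a major antenna protein of photosystem II. Its level was 3.27 and 0.248 CPM in bzr1-D on adequate Pi, 3.22 and 0.0565 CPM on low Pi, 0.557 and 0.0899 CPM in wild type on adequate Pi, and 0.165 and 5.56 CPM on low Pi. In 3 of the 4 groups the replicates differed by more than any pair of group means. RBCS3B (AT5G38410), a small subunit gene of a cluster on chromosome 5, read 2.03 and 0.248 CPM in bzr1-D on adequate Pi, 3.27 CPM and 0 counts on low Pi, 0.354 CPM and 0 counts in wild type on adequate Pi, and 0.0550 and 3.62 CPM on low Pi. The 2 libraries with 0 counts allow a level of up to 0.135 CPM in wild type and 0.165 CPM in bzr1-D, which is 3 counts of their totals and covers counting error only. LHCB1.2, with the widest range of all members, was lowest in wild type on adequate Pi in Exp 2, where it had 0 counts. It read 0.810 CPM in Exp 1 of that group, 0.440 and 2.32 CPM in wild type on low Pi, 5.98 and 2.24 CPM in bzr1-D on adequate Pi, and 6.38 and 2.43 CPM on low Pi.

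Of the 7 members, LHCB1.2 departed from the pattern, since it was higher in bzr1-D on low Pi in Exp 2 than in wild type on low Pi in Exp 2. LHCB2.1, a copy just above 1 CPM, did too, at 1.47 CPM in wild type on adequate Pi in Exp 1.

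The lowest Rubisco and photosystem II antenna copies had the same 3 libraries highest. RBCS1B, the small subunit gene with the lowest mean, read 0.152 CPM and 0 counts in wild type on adequate Pi, 0.110 and 1.24 CPM on low Pi, 0.520 and 0.0621 CPM in bzr1-D on adequate Pi, and 0.868 CPM and 0 counts on low Pi. LHCB2.2, the antenna gene with the lowest mean, read 0.202 and 0.0449 CPM in wild type on adequate Pi, 0.165 and 0.594 CPM on low Pi, 0.416 and 0.124 CPM in bzr1-D on adequate Pi, and 0.715 CPM and 0 counts on low Pi. In both, the 3 libraries named above were the highest, though LHCB2.2 had at most 14 counts in a library. LHCB1.1 to LHCB1.5 shared between 10.6% and 20.5% of their words of 50 bases with other genes, LHCB2.2 shared 29.5% and RBCS3B 16.5%. LHCB1.4 spanned 0.0449 to 1.84 CPM in wild type and 0.124 to 1.89 CPM in bzr1-D, and RBCS2B 0 to 1.03 CPM and 0.0565 to 2.19 CPM. LHCB2.3, just outside the limit on range, spanned 0.0449 to 0.54 CPM and 0.226 to 0.664 CPM. Reads of near-identical copies may be split or dropped, so the level of each copy is uncertain.

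The same 3 libraries were the highest for 10 of the 39 members, namely LHCB1.1, LHCB1.3, LHCB1.4, LHCB2.2, LHCB2.3, RBCS1B, RBCS2B, RBCS3B, PSAE1 and PSAG. Among all 20262 tested features, 1.33% had these libraries as their 3 highest. Outside the members, the same order was found for 4 of 15 other carbon fixation genes (PRK, GAPA2, GAPB and FBA1), 1 of 11 photorespiration genes (GOX1), 1 of 21 other thylakoid genes and 1 of 17 chlorophyll synthesis genes. Of the 10 root markers, WOX5 had it, and no gene of the clock list, the greening regulators or the shoot markers did. The libraries were picked for being high, so these counts describe the pattern and were not tested. The summed shoot markers in the 3 libraries, at 24.7, 30.9 and 23.2 CPM, lay within the range of the other 5. PDF1 supplied 366 of 475, 459 of 605 and 346 of 429 counts of these sums, so they mainly follow that gene. They cannot show whether shoot tissue had a part in the pattern, which was not tested.

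The larger copies of the same families were steadier. LHCB1.5, the antenna gene with the highest mean, read 27.9 and 19.5 CPM in wild type on adequate Pi, 30.0 and 18.6 CPM on low Pi, 39.2 and 36.6 CPM in bzr1-D on adequate Pi, and 27.3 and 41.8 CPM on low Pi. 3 of the 4 bzr1-D libraries exceeded every wild-type library, and the averaged log2 fold change was 0.59 (edgeR adjusted p 0.206, and 0.251 with the block). LHCB4.1, a minor antenna protein that links the core to the outer antenna, read 13.9 and 22.1 CPM in wild type on adequate Pi, 14.9 and 19.3 CPM on low Pi, 18.4 and 27.9 CPM in bzr1-D on adequate Pi, and 15.5 and 32.7 CPM on low Pi. In every group the Exp 2 library was the higher one. LHCB4.1 passed the genotype test only with the block (0.42 without and 0.40 with it, adjusted p 0.0222). Of the antenna genes not yet given, LHCB1.3 spanned 4.72 to 14.2 CPM in wild type and 11.2 to 20.5 CPM in bzr1-D, so that the groups overlapped. LHCB3 read 3.64 to 7.13 CPM in wild type and 6.52 to 9.51 CPM in bzr1-D. LHCB5, which joins the outer antenna to the core, read 4 to 8.56 CPM in wild type and 8.42 to 9.81 CPM in bzr1-D. LHCB6, another inner antenna gene, read 9.01 and 7.37 CPM in wild type on adequate Pi, 8.64 and 7.94 CPM on low Pi, 9.93 and 8.07 CPM in bzr1-D on adequate Pi, and 9.95 and 9.6 CPM on low Pi. LHCB6 was higher in bzr1-D in 4 of 4 pairs and did not overlap on low Pi, with an averaged log2 fold change of 0.19 (edgeR adjusted p 0.584). LHCB4.2 spanned 3.85 to 5.5 CPM in wild type and 3.53 to 5.48 CPM in bzr1-D, and LHCB2.1 0.539 to 1.67 and 0.791 to 1.51 CPM. With all libraries, none of these was called in a genotype or Pi comparison. Neighbouring genes overlap LHCB3 over 14.4% and LHCB6 over 7.37% of its length, so reads in those stretches may be lost from their counts.

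RBCS1A shared features of both patterns. It read 6.13 and 5.93 CPM in wild type on adequate Pi, 4.13 and 16.4 CPM on low Pi, 12.7 and 14.8 CPM in bzr1-D on adequate Pi, and 15.7 and 14.3 CPM on low Pi. All 4 bzr1-D libraries lay above 3 of the 4 wild-type libraries, and wild type on low Pi in Exp 2 was the highest of all. The averaged log2 fold change was 0.87 ± 0.36 (SE, edgeR adjusted p 0.306). Without that wild-type library, RBCS1A alone among the members was called in the genotype comparisons without the block.

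The response to low Pi was small for most members and was not called for any. In wild type 26 of 37 members were fitted higher on low Pi and 11 lower, with a median log2 fold change of 0.22 against 0.00 over all features. In bzr1-D 20 were higher and 17 lower, with a median of 0.07 against 0.00. No member reached an adjusted p under 0.05 in edgeR, with or without the block, and none an unadjusted p under 0.05. Without wild type on low Pi in Exp 1, which leaves Exp 2 as its only library, the fit with the block called LHCB1 and RBCS copies in wild type. The share of all features called in that fit is not given here. With all libraries, 0.0% of all features were called in either genotype without the block, and with it 0.0839% in wild type and 0.0197% in bzr1-D. Both low Pi libraries lay above both adequate Pi libraries for 4 members in wild type (LHCA1, LHCB1.4, LHCB2.3 and PSAE1), as for 11.9% of all features, and below for 4 (PSAH1, PSBO2, PSBR and PETC), as for 10.7%. In bzr1-D that held for PSAD1 upward, against 9.92% of all features, and for PSAK downward, against 9.72%.

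The positive median in wild type came from Exp 2. Within Exp 1 the median log2 ratio of low to adequate Pi was -0.14 in wild type, and within Exp 2 it was 0.28. For the 7 members with the widest range, the ratio lay between -1.55 and 0.06 in Exp 1 and between 2.26 and 5.22 in Exp 2. In bzr1-D these 7 members ran the other way, with medians of 0.64 in Exp 1 and -0.70 in Exp 2. The 30 other tested members had medians of -0.08 and 0.13 in wild type and -0.24 and 0.18 in bzr1-D.

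**Figure D5:**
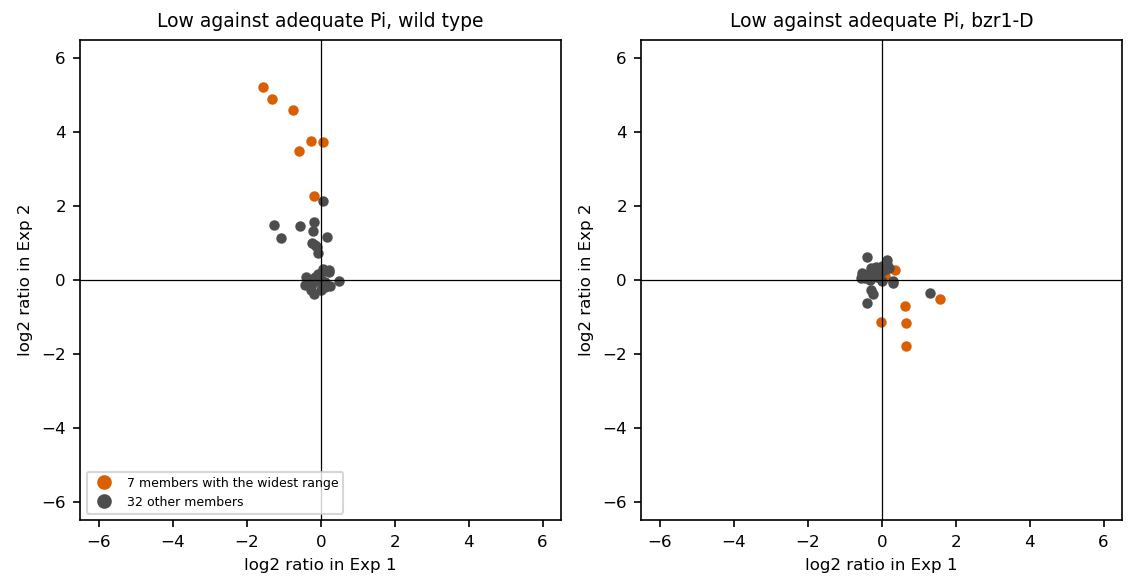
Log2 ratio of low to adequate Pi in Exp 1 against Exp 2 for each member, in wild type and in bzr1-D, with the 7 members with the widest range in orange and the 32 other members in grey. In wild type the 7 members lie between 2.26 and 5.22 in Exp 2 and between -1.55 and 0.06 in Exp 1, and most other members lie near 0 in both.

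The difference between the Pi responses of the genotypes was not called for any member. The median was -0.17 against 0.01 over all features, with 13 members above 0 and 24 below, and 0.0% of all features were called without or with the block. Without wild type on low Pi in Exp 1, the fit with the block called some members, and the share of all features called there is not given here. The genotype difference held within each Exp for the members as a set, with medians on adequate Pi of 0.59 in Exp 1 and 0.70 in Exp 2, and on low Pi of 0.51 and 0.25. For the 30 tested members outside the 7, the medians on low Pi were 0.45 and 0.36. Of the 7, the medians on low Pi were 3.58 in Exp 1 and -2.85 in Exp 2, where wild type on low Pi was the high library.

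Exp numbers themselves were a source of spread. Between Exp 2 and Exp 1, the edgeR fit called LHCB4.1 (log2 fold change 0.69, adjusted p 9.10e-04), PSAN (0.95, adjusted p 0.00156), PSAD2 (0.75, adjusted p 0.021) and PSBR (0.31, adjusted p 0.049) higher, 4 of 37 members, where 29.5% of all features were called and 14.5% higher. PSAN, a lumen-side subunit of photosystem I, read 5.11 and 9.98 CPM in wild type on adequate Pi, 4.51 and 9.78 CPM on low Pi, 6.81 and 8.63 CPM in bzr1-D on adequate Pi, and 5.10 and 13.4 CPM on low Pi. The number called between Exps moved with the library left out. Exp 2 was above Exp 1 in all 4 groups for 6 members, against 22.6% of all features, and below for 2, LHCB6 and PSAK, against 23.4%.

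Other genes of photosynthesis had smaller medians than the members in the averaged genotype comparison, a difference that was not tested. Of 19 tested other thylakoid genes 17 were fitted higher, with a median log2 fold change of 0.38, and 1 was called without the block, PSBY (0.99, edgeR adjusted p 0.0384), a small photosystem II protein. With the block 5 were called higher and none lower. Of 14 tested carbon fixation genes 11 were higher, with a median of 0.42, and FBA2, a plastid aldolase, was called without the block (1.33, adjusted p 0.0282). RCA, the Rubisco activase, read 28 and 23.4 CPM in wild type on adequate Pi, 25.7 and 25 CPM on low Pi, 34.7 and 37.6 CPM in bzr1-D on adequate Pi, and 27.4 and 36.3 CPM on low Pi. Its log2 fold change was 0.41 (adjusted p 0.11, and 0.0171 with the block). FNR2 and PSBTN had the widest ranges of the thylakoid list (0.0565 to 1.19 and 0.27 to 1.68 CPM), and CA1 and GAPA2 those of the carbon fixation list (0 to 1.24 and 0.135 to 2.16 CPM). Photorespiration genes had a median of 0.17 over 10 tested, and none was called without the block. GOX1, a glycolate oxidase, read 0.101 to 1.4 CPM and AGT1, an aminotransferase, 57 to 178 CPM.

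Chlorophyll synthesis genes were divided between directions. Of 16 tested, 9 were higher and 7 lower, with a median of 0.05. Without the block PORB, a protochlorophyllide reductase (0.89, edgeR adjusted p 0.0248), and CRD1, a cyclase subunit (0.54, adjusted p 0.0305), rose, and HEMA2, an early enzyme of tetrapyrrole synthesis, fell (-0.78, adjusted p 0.00747). CHLH, the large subunit of magnesium chelatase, read between 33.8 and 48.0 CPM with overlapping groups, and GUN4, which stimulates that enzyme, 0.282 to 0.97 CPM. PORA, a second reductase, stayed between 0.0506 and 0.248 CPM and was not tested.

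The greening regulators did not move as a list, with 8 of 17 tested higher, 9 lower and a median of -0.02. HYH, a relative of the light regulator HY5, was called lower on both Pi supplies without the block. HYH read 31.5 and 29.0 CPM in wild type on adequate Pi, 26.8 and 26.3 CPM on low Pi, 16.7 and 13.9 CPM in bzr1-D on adequate Pi, and 14.1 and 11.9 CPM on low Pi. The log2 fold change was -0.98 on adequate Pi (edgeR adjusted p 0.017) and -1.03 on low Pi (adjusted p 0.014). PIF3, a phytochrome-interacting factor, rose in the averaged comparison (1.06, adjusted p 0.00773), with 2.13 to 3.46 CPM in wild type and 4.66 to 6.84 CPM in bzr1-D. HY5 read 35.1 to 45.3 CPM and GLK2, an activator of photosynthesis genes, 7.96 to 12.8 CPM, with overlapping groups. ELIP2, an early light-induced protein and the widest-ranging of this list, read 3.67 to 8.5 CPM in wild type and 1.81 to 4.78 CPM in bzr1-D and was called lower with the block only (-0.85, adjusted p 0.00187). GLK1 and GNC, which also promote chloroplast development, read between 0.0621 and 0.506 CPM and were not tested, and CGA1 was not analysed here.

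Lists outside the green tissue programme had medians of -0.07 for 10 clock genes, 0.01 for 3 root plastid ferredoxin genes and -0.09 for 10 root markers in the averaged comparison. Single root markers moved with genotype. PHT1;1 read 211 and 189 CPM in wild type on adequate Pi, 330.5 and 307 CPM on low Pi, 134 and 93.4 CPM in bzr1-D on adequate Pi, and 191 and 223 CPM on low Pi. PHT1;1 fell in bzr1-D by 0.72 on the log2 scale (edgeR adjusted p 0.0228, and 0.00111 with the block). EXPA7, a root hair expansin, had -0.77 (adjusted p 0.159, and 0.0627 with the block). NRT2.1, a nitrate transporter at under 1 CPM, and SHR, a regulator of root tissue pattern, were called higher with the block only (2.01 and 0.23, edgeR adjusted p 0.0151 and 0.0381). The 10 root markers summed to 621 and 763 CPM in wild type on adequate Pi, 737 and 741 CPM on low Pi, 569 and 539.5 CPM in bzr1-D on adequate Pi, and 642 and 581 CPM on low Pi. On each Pi supply both bzr1-D sums lay below both wild-type sums, but a few genes weigh heavily in them. In Exp 1 on low Pi, PHT1;1 gave 330.5 of 737 CPM in wild type and 191 of 642 CPM in bzr1-D. IRT1 ranged from 374 counts in bzr1-D on low Pi in Exp 2 to 4878 in wild type on adequate Pi in Exp 2. The sums therefore follow single genes more than the list. The part of root cell types in the members' difference was not tested.

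The clock genes PRR7 and PRR9 read 20.6 to 47.6 and 3.78 to 8.3 CPM, and RFNR2, a root ferredoxin reductase, and FD3, a root ferredoxin, read 126 to 247 and 258 to 365 CPM. Among 6 tested plastid-encoded genes the median was 0.22, and none was called. RBCL, the Rubisco large subunit, read 0.26 to 1.43 CPM and PSBD, which was not tested, at most 0.508 CPM, in libraries made from polyadenylated RNA. Of the 14 shoot markers 3 were tested, with a median of 0.05, and CER1, a wax synthesis gene, was called with the block only (0.89, edgeR adjusted p 0.00258). The part of shoot cells in the genotype difference was not tested.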

How the data were processed

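Roots of 8 samples in 4 groups were profiled. The authors deposited 1 table of whole-number read counts per annotated feature, with no normalization, and per the submitters' processing notes TopHat2 2.0.11, HTSeq 0.6.1, DESeq2 1.2.8 and TAIR10 were used. Strand settings and how multiply matching reads were handled: not given in the sources used here. Where reads on overlapping features or near-identical copies were dropped, those members read too low.

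Groups and Exp numbers came from the sample labels. The members and all gene lists were chosen with earlier results of these data known. The test was edgeR 4.0.16 under R 4.3.3 (quasi-likelihood, robust, 1 coefficient per group over 8 libraries, TMM scaling, minimum count 10), Benjamini-Hochberg adjustment ran over 20262 features, and an adjusted p under 0.05 counted as a call. The SE is the log2 fold change divided by the root of F. The genotype comparison averaged over Pi, the grouping of members by range, the choice of the 3 high libraries and the restriction to members above 1 CPM were chosen after the data were seen. A chi-square test of counts between the replicates of each group gave 16.9 to 36.3 per degree of freedom, so no library copied its replicate. Libraries of different groups were not compared in this way. Same-numbered libraries deviated together in all 6 pairs of groups (correlations 0.34 to 0.69), so the Exp number was taken to pair them, and results with it as a block are given where a call changes. The labels do not say what an Exp number shares. Exp 2 against Exp 1 was tested in the blocked fit.

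Values in every library are given for the members with the highest and lowest mean and the widest range of log2(CPM + 0.1) in each role group and for every member called in any comparison. LHCB1.1 and the genes of other lists beyond the 2 with the widest range, the textbook greening genes and the genes called were named after their values were seen. Alternatives were DESeq2 1.42.0, limma-voom 3.58.1, other size factors, no filter, fits on the compared groups only and leaving out each library. Upstream sequences were read from TAIR10.1, of which 26932 gene entries matched the table by locus, while gene coordinates are those of the table (TAIR10). A word of 50 bases is as long as a read.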

Additional observations from a re-analysis of the deposited data

Results flagged for a closer look

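PSAE1, a stromal-side subunit of photosystem I, stood out because its level on low Pi was above that on adequate Pi in both wild-type pairs and below it in both bzr1-D pairs. The difference was 0.134 CPM in Exp 1 and 0.883 CPM in Exp 2 in wild type, and -0.604 and -0.519 CPM in bzr1-D. PSAE1 was found by searching the named members and the summed level for opposite signs, and the share of all features with such signs was not computed. It had 14 to 45 counts per library, and its 3 highest libraries were the 3 high libraries described above. The difference of the responses was -1.25 ± 0.66 (log2, SE) with an edgeR adjusted p of 1.00, which does not pass.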

How the results depend on the processing

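With the Exp number as a replicate block, which the pairing check allows, members called rose from 0 to 3 on adequate Pi, from 0 to 6 on low Pi and from 4 to 12 averaged over Pi. No member lost a call or changed the direction of one under it. DESeq2 called 1 member on adequate Pi (LHCA3), and the fit on the compared groups alone called 1 (RBCS1A), with a median of 0.60. Among members above 1 CPM, a limit set after seeing the data, the median difference of Pi responses was -0.11. Without the 3 libraries that were high in LHCB1, LHCB2 and RBCS copies, left out after seeing the data, 1 member was called in the averaged comparison (RBCS1A).

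Leaving out each library in turn, with and without the block, gave these ranges. Members called ran from 0 to 8 for the Pi response in wild type, from 0 to 16 and 0 to 12 for the genotype difference on adequate and low Pi, from 0 to 5 for the difference of Pi responses, from 0 to 23 for the averaged difference and from 2 to 15 between Exps. It was 0 throughout for the Pi response in bzr1-D. The members' median ran from -0.094 to 0.39 for the Pi response in wild type, from -0.11 to 0.15 in bzr1-D, from 0.46 to 1.02 and from 0.093 to 0.68 for the genotype difference on adequate and low Pi, from -0.40 to 0.082 for the difference of Pi responses and from 0.32 to 0.73 for the averaged difference. For the genotype difference on low Pi, most members were called without bzr1-D on low Pi in Exp 1. In the other comparisons with calls, most were called without a library of wild type on low Pi. In each such fit 1 group has 1 library, which is assumed to vary like the other groups. RBCS3B on low Pi, -0.15 ± 1.64 (SE) with all libraries, ran from -8.24 to 5.62, the latter a reversed sign without wild type in Exp 2, and fitted values of such low copies depend on the prior count. The cause was not tested.

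Without PSBR the summed level was 228 and 209 CPM in wild type on adequate Pi, 218 and 252 CPM on low Pi, and 322 and 310 CPM in bzr1-D on adequate Pi. With no scaling factor the last 2 libraries, PSBR included, summed to 365 and 369 CPM. DESeq2 size factors, no filter on low counts and limma-voom left the counts of members called in the genotype and Pi comparisons unchanged, and DESeq2 called 6 in the averaged one. With 2 libraries a group, members under 1 CPM rested on few counts.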
